A study of Homo sapiens with 51 samples.

Results

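The genes described here are 10 members of a pair of epithelial tumour marker families, CEACAM1, CEACAM5, CEACAM6, CEACAM7, KLK5, KLK6, KLK7, KLK8, KLK10 and KLK11, out of 25421 gene symbols in the count table. They were taken by symbol, and all 10 were found. They were chosen by their measured counts in the untreated libraries, where CEACAM6 and KLK10 set HPAFII and PATU8988S apart from KP4, PANC1 and PK45H, so that difference is given as a description, with no test. The question was which of the 10 genes OVOL2 brought back in the lines where they were low.

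Gene counts came from PLATE-seq, a method that barcodes cDNA from the 3′ ends of transcripts well by well and pools the wells, in 51 libraries of 5 human pancreatic ductal adenocarcinoma (PDA) cell lines. In KP4, PANC1 and PK45H there were 5 groups of 3 libraries, made from untreated cells, from cells given mCherry or OVOL2 alone, and from cells given either of them together with M2rtTA. For PATU8988S and HPAFII, 3 libraries of untreated cells each were made. mCherry is a fluorescent protein used as the control open reading frame, OVOL2 is a zinc-finger transcription factor, and M2rtTA is a transactivator that drives tetracycline-responsive promoters. The lentiviruses were added at a multiplicity of infection of 2 with 8 µg/ml polybrene. Every transduced group, controls included, then received 2.5 µg/ml puromycin and 0.6 µg/ml doxycycline. Cells were cultured for 6 days in all, and 100 ng of total RNA entered each library. The transduced cells were selected populations, and the labels name no clones. The protocol gives the transductions as triplicates on 6-well plates and says nothing of how the untreated libraries were replicated, so p-values measure only the spread between these libraries, which may be technical.

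CEACAM proteins are cell surface glycoproteins of the immunoglobulin superfamily that bind one another and themselves on neighbouring cells. CEACAM5 is the carcinoembryonic antigen measured in patient serum, and CEACAM6 is its close relative, also anchored in the membrane by a lipid. CEACAM1 instead has a cytoplasmic tail that recruits phosphatases. The kallikrein-related peptidases are secreted serine proteases that are made as inactive precursors, activate one another in cascades, and are best known from the shedding of skin. Their genes lie side by side in one cluster, and several of them are raised together in carcinomas, the pancreas among them.

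All 10 genes lie on chromosome 19 of GRCh38 as annotated by GENCODE. CEACAM7 (chr19:41673307-41706976, minus strand), CEACAM5 (chr19:41708585-41729798, plus strand) and CEACAM6 (chr19:41750977-41772208, plus strand) are neighbours, and CEACAM1 (chr19:42507304-42561234, minus strand) lies beyond them. The 6 kallikrein genes all lie on the minus strand. KLK5 (chr19:50943303-50953093), KLK6 (chr19:50958631-50969673) and KLK7 (chr19:50976482-50984099) come first, followed by KLK8 (chr19:50996007-51002711), KLK10 (chr19:51012739-51020175) and KLK11 (chr19:51022216-51028039).

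Sequence upstream of CEACAM6 and KLK6 is shown because these genes gave the clearest OVOL2 differences, and that of CEACAM5 because it is the close relative of CEACAM6 that gave no call. Each is the longest part of the 250 bases before the RefSeq start (GRCh38.p14) that overlaps no annotated exon of a protein-coding gene. Exons of other gene types, such as antisense genes, were not excluded. Each is read 5′ to 3′ on the gene's own strand, with capitals marking the motif CAGGTG or its reverse complement CACCTG. The stretches are chr19:41708376-41708584 on the plus strand for CEACAM5, chr19:41755280-41755420 on the plus strand for CEACAM6 and chr19:50969674-50969841 on the minus strand for KLK6.
CEACAM5: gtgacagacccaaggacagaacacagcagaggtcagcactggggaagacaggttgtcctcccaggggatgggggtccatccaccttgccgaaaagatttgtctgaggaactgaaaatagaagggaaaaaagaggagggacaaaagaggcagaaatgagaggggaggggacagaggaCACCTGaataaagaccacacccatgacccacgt
CEACAM6: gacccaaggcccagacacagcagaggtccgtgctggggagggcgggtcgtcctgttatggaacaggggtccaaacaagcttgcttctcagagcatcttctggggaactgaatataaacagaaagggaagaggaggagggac
KLK6: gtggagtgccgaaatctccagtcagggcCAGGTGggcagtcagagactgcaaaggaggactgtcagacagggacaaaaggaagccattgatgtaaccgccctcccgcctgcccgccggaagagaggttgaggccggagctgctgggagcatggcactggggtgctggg
Over the full 250 bases, the CEACAM5 and CEACAM6 promoters were identical at 74.6% of aligned positions, whereas KLK6 matched CEACAM6 at 52.7%. RefSeq promoters were matched for 9 of the 10 genes. CAGGTG, the E-box that ZEB factors bind, was found on either strand in 17.5% of 35116 promoters of this length and in 4 of the 13 member promoters, those of CEACAM5, KLK6, KLK7 and KLK11. CCGTTA, the core of the sequence bound by OVO-type zinc fingers, was in 2.45% of all promoters and in 0 of the 13. A match is a description of these letters only.

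The smallest total was 1165399 counts and the largest 3983186 among HPAFII libraries, and other lines had 2439323 to 7490556. Levels are in CPM, the usual depth-normalised count, after edgeR's TMM correction, and are given as mean ± SD of 3 libraries. They are not divided by length, and levels of different genes are not ranked. Calls are edgeR quasi-likelihood tests with Benjamini-Hochberg adjusted p under 0.05 over all genes tested. The summed level of 6 ductal epithelial markers (KRT7, KRT8, KRT18, KRT19, EPCAM, CDH1) was 637.0 to 813.5 CPM in untreated KP4, 2530 to 3336 in PK45H and PANC1, and 4753 to 14440 in PATU8988S and HPAFII, and none of the 6 was at 0. Leukocyte markers summed to 1.07 to 33.95 CPM in the untreated libraries, led by LYZ, and PTPRC stood at 0.253 to 0.808 CPM. In HPAFII replicate 2, which also had the lowest total, members other than CEACAM7 were at 0.299 to 0.487 of their mean in the other HPAFII libraries, and KLK5 was at 0, so results resting on it are also given without it.

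In the untreated libraries, CEACAM1, CEACAM5, CEACAM6, KLK6, KLK10 and KLK11 were higher in every HPAFII and PATU8988S library than in any library of KP4, PANC1 or PK45H. CEACAM6 was 779, 379 and 864 CPM in HPAFII and 313, 295 and 262 in PATU8988S. In KP4 it was 10.4, 9.11 and 7.05, in PANC1 8.37, 8.89 and 10.9, and in PK45H 9.73, 7.91 and 10.3 CPM. Every library of the first pair of lines stood above every library of the other 3, whose ranges overlapped.

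KLK10, a kallikrein-related peptidase frequently raised in pancreatic tumours, was 471, 192 and 452 CPM in HPAFII and 115, 117 and 108 in PATU8988S. The 3 other lines held 4.66 ± 0.819, 4.22 ± 0.270 and 6.54 ± 1.09 CPM (KP4, PANC1 and PK45H). KLK6, also named neurosin, was 1781, 530 and 1524 CPM in HPAFII but 61.3, 63.1 and 73.8 in PATU8988S, against 8.84 to 10.1 CPM as the means of the 3 other lines. Its separation thus came with a wide gap inside the high pair, which KLK10 and CEACAM6 did not have to that degree.

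**Figure D1:**
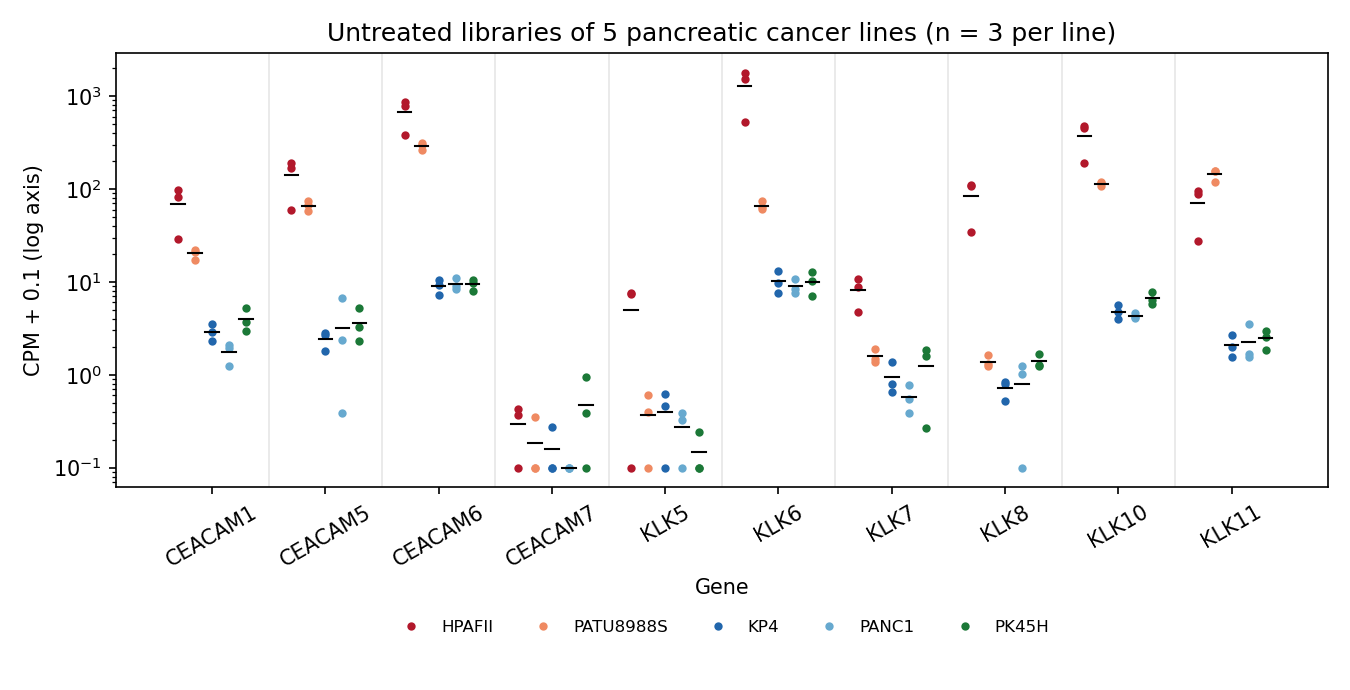
Level of each gene in the 15 untreated libraries (vertical axis: CPM plus 0.1 on a log axis; points: libraries, coloured by line; bars: means). CEACAM6 and KLK10 stand apart in all 6 HPAFII and PATU8988S libraries, KLK6 and KLK8 are highest in HPAFII, and CEACAM7 is near 0 in all 5 lines.

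The remaining genes followed in different ways. CEACAM5 averaged 139.8 ± 70.4 CPM in HPAFII, 65.8 ± 8.28 in PATU8988S and 2.34 to 3.49 in the other 3 lines. CEACAM1 averaged 69.1 ± 35.6 and 20.1 ± 2.56 CPM, against 1.66 to 3.86. KLK11, the trypsin-like peptidase also called hippostasin, was higher in PATU8988S (143.2 ± 22.0 CPM) than in HPAFII (70.2 ± 37.3), with 1.97 to 2.36 in the others.

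KLK8, or neuropsin, was high in HPAFII alone among these lines, at 84.4 ± 43.3 CPM, since PATU8988S held 1.29 ± 0.205 CPM and PK45H 1.31 ± 0.245. KLK7, the chymotrypsin-like enzyme of skin shedding, reached 7.98 ± 2.98 CPM in HPAFII, 1.48 ± 0.278 in PATU8988S and 0.475 to 1.13 in the other lines. KLK5, the trypsin-like enzyme that activates KLK7, had 23, 0 and 27 counts in HPAFII and at most 3 in any untreated library of another line. CEACAM7, a family member best known from the colon, had at most 5 counts in any untreated library. These last 4 genes therefore do not mark HPAFII and PATU8988S as a pair.

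PATU8988S and HPAFII were also set against each other. The choice of genes used these same 6 libraries, and some genes passed the low-count filter only through HPAFII, so the differences are a description. Of 8 members tested edgeR called 6 lower in PATU8988S and none higher, beside 9.14% of all genes lower, and nothing is read from that count. The log2 fold changes were -6.05 (SE 0.507) for KLK8, which had 6, 5 and 4 counts in PATU8988S, and -4.30 (SE 0.392) for KLK6. They were -2.50 (SE 0.563) for KLK7, -1.83 (SE 0.331) for CEACAM1, -1.74 (SE 0.261) for KLK10 and -1.24 (SE 0.249) for CEACAM6. CEACAM5 (-1.12, SE 0.491) was called only without HPAFII replicate 2 (-1.47). KLK11 (0.98, SE 0.352) was not called by edgeR on all libraries, but was called higher in PATU8988S by DESeq2 (0.98) and by edgeR without HPAFII replicate 1 (1.26). Because the genes were chosen on these libraries, no call in this comparison counts as support.

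The joint effect of transduction, polybrene, puromycin and doxycycline was checked before OVOL2, and its parts cannot be told apart. Against untreated cells, mCherry gave 0 members called by edgeR or DESeq2 in the 3 lines, beside 0%, 0.598% and 0.00736% of all genes in KP4, PANC1 and PK45H. One member had an unadjusted p under 0.05, KLK10 in KP4 (0.74, SE 0.279, adjusted p 0.592). Adding M2rtTA to mCherry also gave 0 members, with 0 at an unadjusted p under 0.05, beside 0%, 0% and 0.0294% of all genes. The mCherry groups served as the background for OVOL2.

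The level of OVOL2 was read from the same libraries. Without M2rtTA, no difference in OVOL2 from mCherry was called over the lines (-0.09, SE 0.458, adjusted p 0.926). With M2rtTA it was higher over the lines (2.15, SE 0.442, adjusted p 0.00021), and it was called in KP4 (4.98 ± 4.74 CPM under OVOL2) and PK45H (4.52 ± 0.228). In PANC1 it was not called (1.40, SE 0.742, adjusted p 0.244), with 2.15 ± 0.703 CPM under OVOL2, 0.851 ± 0.616 under mCherry and 1.93 ± 1.22 in untreated cells. ZEB1, a repressor of epithelial genes, fell in both arms (-2.64, SE 0.236, adjusted p 1.736e-10 without M2rtTA, and -1.95, SE 0.225, adjusted p 1.439e-08 with it). Libraries of 3′ ends need not count an open reading frame supplied without the gene's own 3′ end, and the labels do not describe the construct's 3′ end, so the OVOL2 count alone does not check the arm without M2rtTA.

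Without M2rtTA, no change of any of the 10 genes under OVOL2 was called. In edgeR 0 of 8 members tested were called in KP4 (6.82% of all genes, either direction), 0 of 6 in PANC1 (5.08%) and 0 of 6 in PK45H (8.39%), and over the 3 lines 0 of 8 (18.1%). DESeq2 also called 0 in each of these. At an unadjusted p under 0.05 there was 1 in KP4, CEACAM6 (0.63, SE 0.282, adjusted p 0.221), 1 in PANC1, CEACAM1 (1.04, SE 0.434, adjusted p 0.205), 0 in PK45H and 0 over lines. Over lines CEACAM6 differed by 0.22 (SE 0.178, adjusted p 0.453) and KLK6 by 0.11 (SE 0.212, adjusted p 0.785). KLK10, one of the genes that set the lines apart, differed by -0.32 (SE 0.181, adjusted p 0.232). It was called lower only when PK45H OVOL2 replicate 1 was left out (-0.50, adjusted p 0.0499).

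CEACAM1 in PANC1 without M2rtTA was 0.9002, 2.25 and 1.29 CPM in mCherry and 3.22, 3.23 and 3.02 in OVOL2. The groups did not overlap, but the OVOL2 libraries held 4.57% of the mean HPAFII level, and with M2rtTA the same gene overlapped (3.34, 3.68 and 1.66 CPM against 3.66, 3.01 and 1.88). KLK8 in PANC1 was 4.03, 3.92 and 0.403 CPM under OVOL2 against 0.643 ± 0.252 in mCherry, while in PK45H it was 0.236, 0.168 and 0.622 against 1.42 ± 0.280. These are few counts, 15, 17 and 2 against 2, 7 and 3 in PANC1 and 1, 1 and 3 against 7, 3 and 6 in PK45H. KLK8 failed the low-count filter in the fits of both lines. The test of a difference between lines gave KLK8 an adjusted p of 0.0996, and 0 of 8 members were called in that test (2.74% of all genes; 1 at an unadjusted p under 0.05), which DESeq2 changed to 1 (KLK8, adjusted p 0.0361), as did leaving out PANC1 OVOL2 replicate 3 (adjusted p 0.029).

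With M2rtTA, KLK6, CEACAM6 and KLK7 were called higher under OVOL2 in the mean over the 3 lines. The KLK7 call is a description only, for the reason given with its counts below. These were 3 of 8 members tested, and 15.7% of all genes rose and 17.3% fell in the same test. KLK6 rose by 0.99 on the log2 scale (SE 0.210, adjusted p 0.000307), KLK7 by 1.46 (SE 0.492, adjusted p 0.0205) and CEACAM6 by 0.55 (SE 0.175, adjusted p 0.0142). All 8 log2 fold changes were above 0, beside 52.6% of all genes, with a median of 0.41 against 0.03 over all genes. The other 5 members tested were not called. Without M2rtTA 5 of 8 log2 fold changes over lines were above 0, beside 50.1% of all genes, with a median of 0.11.

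**Figure D2:**
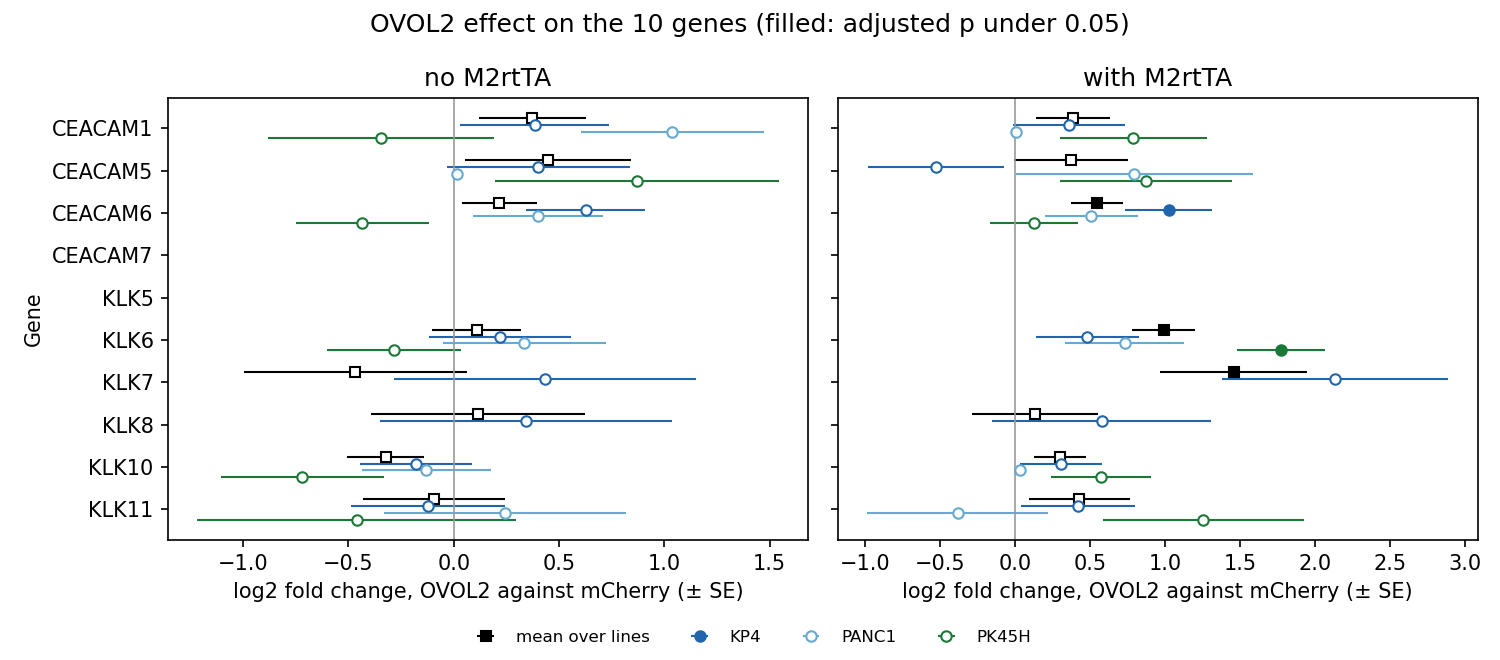
Log2 fold change of OVOL2 against mCherry for the 10 genes without (left) and with M2rtTA (right), as the estimate ± SE in each line and over lines; filled symbols passed an adjusted p of 0.05. With M2rtTA, KLK6 in PK45H (1.77), CEACAM6 in KP4 (1.02) and the 3 line means of CEACAM6, KLK6 and KLK7 are filled; without M2rtTA none is. CEACAM7 and KLK5 were not tested, KLK7 and KLK8 were not tested in PANC1 and PK45H, and changes under 0.05 in size carry no error bar.

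KLK6 was called in PK45H and in no other single line. There the 3 libraries with mCherry and M2rtTA held 16.4, 9.07 and 9.29 CPM, and those with OVOL2 and M2rtTA held 37.0, 44.5 and 37.2. All 3 OVOL2 libraries stood above every control, and above every other library of the 3 lines. The log2 fold change was 1.77 (SE 0.295, adjusted p 0.00114), the single call among 6 members tested in PK45H, where 7.45% of all genes rose. It was called when each of the 6 libraries was left out in turn (1.62 to 2.09, adjusted p 0.00108 to 0.00841). In KP4 KLK6 was 11.4, 5.87 and 10.7 CPM against 19.8, 10.5 and 8.71, and in PANC1 11.8, 6.59 and 3.95 against 16.3, 6.31 and 14.1. Both overlapped (0.48, adjusted p 0.351, and 0.73, adjusted p 0.254). A difference in the KLK6 effect between the lines was not called (adjusted p 0.19), nor was that of any other member (0 of 8; 7.56% of all genes; 1 at an unadjusted p under 0.05; 0 in DESeq2).

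In the same PK45H groups without M2rtTA, KLK6 was 10.8, 12.8 and 8.73 CPM in mCherry and 6.37, 12.9 and 7.26 in OVOL2, which overlap. The difference between the arms in PK45H was 2.06 (SE 0.434, adjusted p 0.0332), higher with M2rtTA in the sole call among 6 members and beside 0.839% of all genes. This contrast within a line was added after seeing the values, and 8 of 12 leave-outs ended its call (adjusted p up to 0.0828). KP4 and PANC1 gave 0 calls in it (1.43% and 0.136% of all genes; 0 at an unadjusted p under 0.05 in each). Over lines 0 of 8 members differed between the arms in edgeR (7.72% of all genes, either direction), with 3 at an unadjusted p under 0.05, among them KLK6 (0.88, SE 0.298, adjusted p 0.0621), and DESeq2 called 1, KLK6 (0.91, adjusted p 0.0332).

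CEACAM6 rose in KP4 with M2rtTA, from 6.72, 7.41 and 4.66 CPM to 15.1, 9.95 and 12.8, with no overlap. Its log2 fold change was 1.02 (SE 0.289, adjusted p 0.0199), the sole call among 8 members, where 9.91% of all genes rose. The call was lost without OVOL2 replicate 1 (0.87, adjusted p 0.0785), without mCherry replicate 3 of that arm (0.85, adjusted p 0.0851) and after thinning to equal totals (1.43, adjusted p 0.0865). In PANC1 (8.72 ± 2.21 against 12.3 ± 4.63 CPM) and PK45H (10.7 ± 2.08 against 11.7 ± 4.35 CPM) the groups overlapped, and 0 of 6 members were called in PANC1, by either tool (13.9% of all genes, either direction; 0 at an unadjusted p under 0.05). The call over lines was lost without PK45H OVOL2 replicate 3 (0.44, adjusted p 0.057). Without M2rtTA the CEACAM6 groups in KP4 did not overlap either, at 7.41, 5.75 and 8.05 CPM in mCherry and 8.40, 15.8 and 8.61 in OVOL2. That change was not called, so the lack of overlap is not particular to the arm with M2rtTA.

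KLK7 rested on few counts, at most 15 in any of the 45 libraries. No untreated or mCherry library of these lines exceeded 1.80 CPM. Under OVOL2 with M2rtTA single libraries reached 2.82 in KP4, 3.66 in PANC1 and 2.13 in PK45H. KLK7 may thus have passed the low-count filter only through the groups where it was high, so its calls do not count as support. In KP4 with M2rtTA the counts were 3, 0 and 4 in mCherry and 14, 11 and 11 in OVOL2, that is 0.483 ± 0.422 against 2.34 ± 0.482 CPM. The groups did not overlap, and the fold change of 2.14 (SE 0.755) missed the threshold in edgeR (adjusted p 0.0566) and passed it in DESeq2 (2.22, adjusted p 0.0351). Counts were 2, 8 and 0 against 15, 9 and 3 in PANC1 and 7, 4 and 2 against 6, 1 and 9 in PK45H, which overlap. The call over lines was lost without PANC1 OVOL2 replicate 1 (1.18, adjusted p 0.0753) or PK45H OVOL2 replicate 3 (1.25, adjusted p 0.0721).

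**Figure D3:**
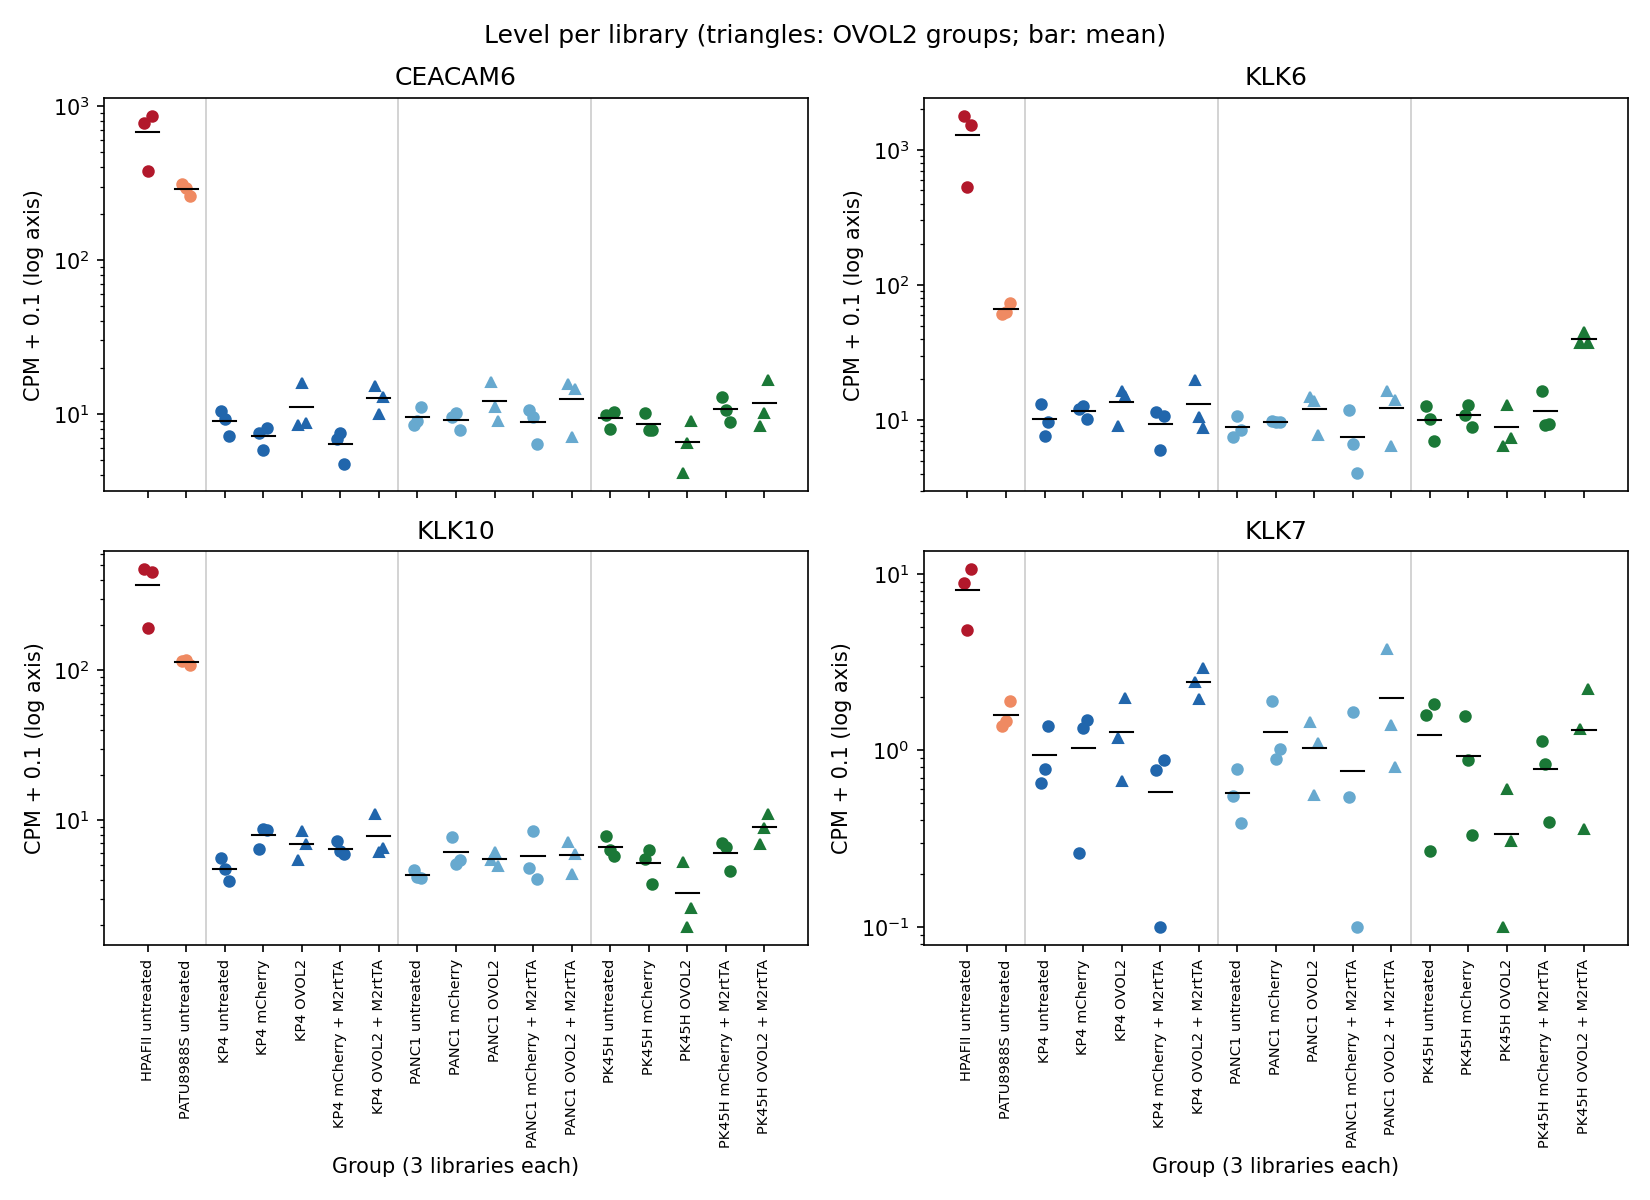
CEACAM6, KLK6, KLK10 and KLK7 in all 51 libraries, by group (vertical axis: CPM plus 0.1 on a log axis; triangles: OVOL2 groups; bars: means of 3 libraries). The PK45H OVOL2 libraries with M2rtTA hold 37.0 to 44.5 CPM of KLK6, below the 61.3 to 73.8 CPM of PATU8988S, while CEACAM6 reaches at most 16.6 and KLK10 at most 10.9 CPM in the 45 libraries of KP4, PANC1 and PK45H.

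For KLK10, chosen beside CEACAM6 for the contrast between lines, no change under OVOL2 with M2rtTA was called. It was 7.17, 6.13 and 5.82 CPM against 10.9, 6.07 and 6.41 in KP4, 4.67, 8.33 and 3.95 against 7.07, 4.30 and 5.87 in PANC1, and 6.94, 6.48 and 4.50 against 6.88, 8.80 and 10.9 in PK45H. Each pair of groups overlapped, and the mean over lines was 0.30 (SE 0.173, interval of 2 SE either side -0.05 to 0.64, adjusted p 0.194). The log2 distance from mCherry to the high pair was 4.76 to 4.96 in the 3 lines.

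CEACAM5 and CEACAM1 also gave no call with M2rtTA. CEACAM5 differed by 0.37 over lines (SE 0.381, adjusted p 0.493) and reached its highest library, 9.58 CPM, in PK45H OVOL2 replicate 2, with 2.02 and 4.02 CPM in its companions. CEACAM1 differed by 0.39 (SE 0.247, adjusted p 0.248) and had its highest library, 8.29 CPM, in the same replicate. KLK11 differed by 0.43 (SE 0.337, adjusted p 0.358), and its highest value, 8.99 CPM, came from PK45H OVOL2 replicate 3 beside 1.42 and 2.07. KLK8 differed by 0.13 (SE 0.419, adjusted p 0.846). KLK5 and CEACAM7 failed the low-count filter in all of these fits, with at most 11 and 5 counts in any of the 45 libraries.

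How far the lines moved was set against the distance to the high pair, as a share of the difference in mean log2(CPM + 1) between mCherry and untreated HPAFII and PATU8988S. For genes with a distance of at least 1 the share had a median of 1.84% without M2rtTA (26 gene and line combinations) and 8.46% with it (25). KLK5, KLK7 and KLK8 enter these medians although they do not mark HPAFII and PATU8988S as a pair. KLK6 in PK45H with M2rtTA covered 38.5% ± 3.31, which was 59.9% of the linear PATU8988S level and 3.10% of that of HPAFII. With HPAFII alone as the reference the share was 26.5% and with PATU8988S alone 70.5%. CEACAM6 in KP4 covered 15.4% ± 4.73, or 1.87% of the linear HPAFII level, and 8.48% with untreated cells as the control. KLK7 in KP4 with M2rtTA covered 71.8% ± 12.5 of a distance of 1.68, from the counts given above. That was 29.3% of the linear HPAFII level and 158% of that of PATU8988S, so the share depends on averaging unlike lines. KLK5 in PK45H without M2rtTA had 49.4% ± 42.8 of a distance of 1.18, from 0, 5 and 4 counts against 0 in all 3 controls. In linear terms KLK5 held 11.4% of the HPAFII level there and 207% of that of PATU8988S. KLK10 covered 1.13% to 10.2% in the 3 lines with M2rtTA, and without it its shares were -3.76% in KP4, -2.39% in PANC1 and -11.9% in PK45H. Among all these combinations, every OVOL2 library lay above every mCherry library in 3 of 25 with M2rtTA and 3 of 26 without it. Every OVOL2 library lay below in 0 with M2rtTA and 1 without it. The share of all genes without overlap was not counted, so nothing is read from these counts.

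**Figure D4:**
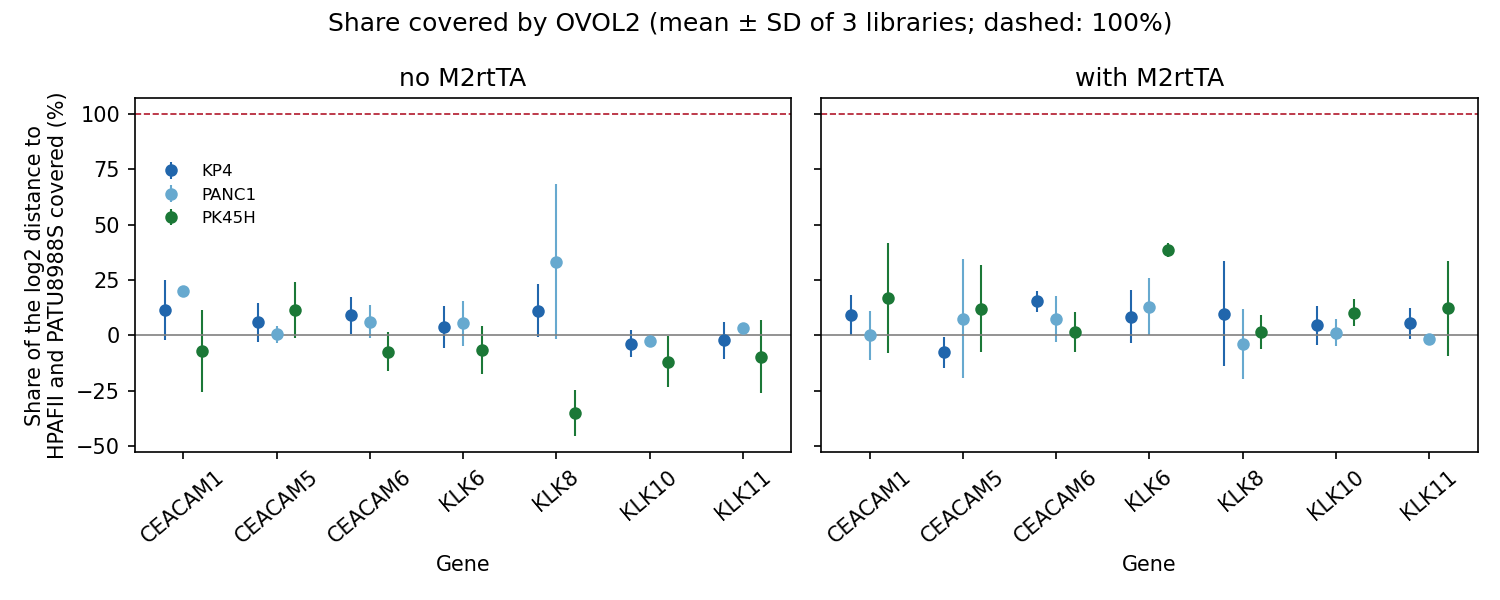
Share of the log2 distance from mCherry to untreated HPAFII and PATU8988S that OVOL2 covered, for 7 genes without (left) and with M2rtTA (right); points are means and bars SD over 3 OVOL2 libraries, and the dashed line marks 100%. KLK6 in PK45H with M2rtTA, at 38.5%, is the highest point of these 7 genes, and the next in that arm is CEACAM1 in PK45H at 16.9%.

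No library of KP4, PANC1 or PK45H reached the lowest PATU8988S or HPAFII library for CEACAM1, CEACAM5, CEACAM6, KLK6, KLK10 or KLK11. Across the 45 libraries CEACAM6 ran from 4.01 to 16.6 CPM (median 8.92), KLK6 from 3.95 to 44.5 (median 10.5) and KLK10 from 1.85 to 10.9 (median 5.87). Among 559 genes with at least 200 CPM in HPAFII, KLK6 ranked 3 to 5 from the lowest level relative to HPAFII (0.691% to 0.786%) in the 3 untreated lines, KLK10 ranked 8 to 12 from the lowest (1.13% to 1.76%) and CEACAM6 10 to 11 (1.32% to 1.39%). The median gene stood at 87.9% to 92.2%. All members were chosen on untreated levels, and the genes ranked were taken for a high level in HPAFII. The ranks of KLK6, KLK10 and CEACAM6 therefore only describe those choices. As a description, log2 level in the 3 lines followed that in HPAFII over the 10 genes (Pearson r 0.919 to 0.936), and for PATU8988S the same r was 0.835, with points that share libraries and depth. Reads carried over between wells of a pooled plate would also leave a low level in every library; no empty well was analysed here, and its part in the low values was not tested. In these bulk libraries, fewer cells expressing a gene and less RNA per cell cannot be told apart.

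Reads can also be shared between genes. Of the 31-base words in the last 500 bases of its transcripts, KLK8 shared 52.7% with the readthrough gene AC011473.4, CEACAM5 shared 26.1% with AC243967.1, CEACAM6 and other CEACAM genes, and CEACAM1 shared 8.8%. KLK7 shared 5.26% with genes outside the family, CEACAM6 shared 3.19%, CEACAM7 shared 0.968%, and KLK5, KLK6, KLK10 and KLK11 shared 0%. The KLK8 and CEACAM5 counts are therefore uncertain, and the strand of the counting is not stated, so reads of antisense genes overlapping CEACAM1, CEACAM6, KLK5, KLK6, KLK7, KLK8 and KLK10 cannot be told apart from theirs.

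Few other genes of both families passed the low-count filter. Of 8 other CEACAM genes 2 were tested over lines with M2rtTA, and CEACAM19 rose (0.77, SE 0.179, adjusted p 0.00096), beside 15.7% of all genes. The rise was called in PK45H (1.79, SE 0.338, adjusted p 0.00281) but not in KP4 (0.57, adjusted p 0.13) or PANC1 (-0.05, adjusted p 0.942). In PK45H it went from 3.10, 2.78 and 4.06 CPM to 11.7, 12.9 and 9.94, where HPAFII averaged 6.03. Of 9 other KLK genes 3 were tested, and KLK1, the tissue kallikrein that releases kinins, rose with M2rtTA (1.17, SE 0.305, adjusted p 0.00282) and without it (0.91, SE 0.322, adjusted p 0.0444). Of all genes, 15.7% rose with M2rtTA and 9.32% without it, so nothing is read from these counts. Its mean in PK45H went from 4.597 to 11.45 CPM with M2rtTA where PATU8988S held 16.2.

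Genes whose products act on kallikreins or are cut by them were counted next. Of 24 activators, inhibitors and substrates, 15 were tested over lines with M2rtTA. Of these 3 rose and 2 fell, beside 15.7% and 17.3% of all genes, so the counts lie near the background. The median was 0.15 against 0.03 over all genes. Those that rose were ST14, which encodes the membrane protease matriptase (3.29, SE 0.554, adjusted p 1.349e-05), and SPINT1 (2.24, SE 0.190, adjusted p 1.515e-11) and SPINT2 (0.71, SE 0.174, adjusted p 0.00154), which encode its inhibitors. ST14 was at most 1.01 CPM in untreated and mCherry libraries of KP4, PANC1 and PK45H, and up to 5.76 under OVOL2. It may have passed the low-count filter only through OVOL2 groups, so its calls in both arms are a description. PLAU, urokinase, fell by 1.39 (SE 0.275, adjusted p 0.000138) and F2R, the thrombin receptor cleaved by proteases, fell by 1.34 (SE 0.194, adjusted p 1.072e-06). Both were called in KP4 and PANC1 but not in PK45H, where PLAU differed by 0.15 (adjusted p 0.879) and F2R by -0.39 (adjusted p 0.421). Without M2rtTA 4 rose and 2 fell, beside 9.32% and 8.81% of all genes. ST14 stayed low in CPM, at 1.67, 3.999 and 2.71 in the OVOL2 groups with M2rtTA against 11.9 in HPAFII and 20.3 in PATU8988S. SPINT1 in PANC1 went from 7.28 ± 1.06 to 57.0 ± 1.51 CPM, beside 59.2 and 56.8 in HPAFII and PATU8988S.

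All 6 ductal epithelial markers rose over lines with M2rtTA, beside 15.7% of all genes, CDH1 (2.52, SE 0.217) and EPCAM (2.26, SE 0.106) most. In PANC1 alone KRT19 fell (-0.56, adjusted p 0.0197). The summed level went from 2228 to 2545 CPM in PANC1 mCherry libraries to 1981 to 2272 with OVOL2, while in PK45H it went from 1849 to 1987 to 4637 to 4769. Of 26 other tumour markers 19 were tested, of which 9 rose, beside 15.7% of all genes, among them MUC5AC (3.63, SE 0.768), EPCAM and LCN2 (1.52, SE 0.158), and 1 fell, MUC1 (-1.04, SE 0.230). LCN2, which encodes lipocalin, was called in PK45H (4.19, SE 0.188) but not in KP4 (0.65, adjusted p 0.216) or PANC1 (-0.28, adjusted p 0.627). MUC5AC, a gastric-type mucin, stayed scarce, with 2.07 ± 1.01 CPM in PK45H under OVOL2 against 0.145 ± 0.251, and it was at 0 in the KP4 controls, so its fitted change is no measure of size. Untreated and mCherry libraries of KP4, PANC1 and PK45H held at most 1.25 CPM of MUC5AC. It may have passed the low-count filter only through OVOL2 groups, so its call is a description. Among squamous markers, where several kallikreins are normally made, 2 of 13 were tested and KRT17 rose (3.31, SE 0.593, adjusted p 3.378e-05), to 18.1 ± 1.85 CPM in KP4. Among 9 partners of CEACAM1 tested 1 rose, SRC (0.39, SE 0.0763), which is no more than the background of 15.7%. Leukocyte markers gave 0 calls of 2 tested, with sums of 4.02 to 11.6 CPM in the OVOL2 groups with M2rtTA and 2.55 to 5.91 in their mCherry groups, and their part in the results was not tested.

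Across the 17 groups, the genes whose log2 level was most like CEACAM6 were TM4SF4 (Pearson r 0.985), TRIM31 (0.984), LAD1 (0.982), KLK10 (0.982) and CYP2B6 (0.981), of 10277 genes ranked. CEACAM6 and KLK10 were chosen for a shared pattern over the lines, so their likeness follows from the choice. KLK10 was most like CDKN2A (0.989), SFTA2 (0.987), TM4SF4 (0.983), CEACAM6 (0.982) and EPS8L3 (0.978). Within the 15 groups of KP4, PANC1 and PK45H alone the nearest genes were different ones: ZNF556 for CEACAM6 (0.872) and GRIPAP1 for KLK10 (0.881), with neither member among the 5 nearest of the other. The nearest to KLK6 were ADGRF1 (0.961) over 17 groups and SEMA4C (0.914) over 15.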

How the data were processed

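PLATE-seq gene counts of 51 libraries (17 groups of 3) were taken from the table the authors deposited, which holds whole-number counts for 25421 gene symbols. The submitters' processing notes name GRCh38 and kallisto 0.44.0, without their role, and the handling of molecular identifiers and strand is not given in the sources used here. Totals of 1165399 to 7490556 counts per library limit the low genes, and a level of 3 counts or fewer was treated as the floor.

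Counts were tested with edgeR 4.0.16 (R 4.3.3, TMM scaling, filterByExpr, quasi-likelihood F test, Benjamini-Hochberg adjustment over all genes tested, threshold 0.05), in 1 fit per transduced line, 1 fit of 45 libraries for means over lines and 1 fit of the 15 untreated libraries. SE is the absolute log2 fold change over the square root of F. DESeq2 1.42.0, other scalings and filters, a replicate block, thinning and leaving out each library were alternatives. Same-numbered libraries did not deviate together (mean correlation -0.0157 to 0.0136). The fits were tested on simulated data. In the PK45H comparison with M2rtTA, 38% of 100 genes changed by 1 on the log2 scale were recovered, and 89% of 100 changed by 2. Of the calls, 3.05% were false. A member that was not called may therefore still have changed by 1 on this scale. Sequences came from RefSeq, positions and overlaps from GENCODE, through Python 3.11.15. Members are described in full, and other genes are those of fixed lists that were called, with the nearest genes by correlation. The members and lists were chosen with earlier results of these data known.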

Additional observations from a re-analysis of the deposited data

Results flagged for a closer look

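The effect of OVOL2 on KLK6 differed between the arms with and without M2rtTA in PK45H, by 2.057 on the log2 scale (SE 0.434, edgeR adjusted p 0.0332), and the test of that difference is what marked it. KLK6 was higher in 3 of 3 OVOL2 libraries with M2rtTA than in every control of that arm, and overlapped its controls without M2rtTA. The contrast within PK45H was added after seeing the data. Its call was lost in 8 of 12 leave-outs, with adjusted p from 0.0175 to 0.0828 over them, and after thinning (2.56, adjusted p 0.0529).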

How the results depend on the processing

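Of 383 recomputed values of single members, 355 kept their direction and side of the threshold or moved by less than the replicate spread, 15 lost a call, 8 gained one, 2 turned sign and 3 moved. These values include calls of PATU8988S against HPAFII, on whose libraries the members were chosen. Of 312 recomputed counts of members called, 294 equalled the count reported or, where both were above 0, lay within 1.5 times of it. Many of the counts reported were 0 and stayed 0, so this tally says little about the calls that were made. The cause was not tested. Members called in KP4 with M2rtTA went from 1 to 2 with DESeq2, to 0 after thinning to the smallest library and to 0 to 1 over leave-outs. Over lines, leave-outs gave 0 to 1 members without M2rtTA and 1 to 3 with it. For a difference between lines without M2rtTA, DESeq2 gave 1 and leave-outs 0 to 1. For a difference between the arms over lines, DESeq2 gave 1, a mean count of at least 10 gave 1, and leave-outs 0 to 1. For PATU8988S against HPAFII, leave-outs gave 6 to 8 and other settings 5 to 7. The members were chosen on these same libraries, so those counts only describe the choice. Over lines with M2rtTA, thinning and a mean count of at least 10 each gave 2. The KLK6 difference over lines without M2rtTA, 0.11, turned to -0.0738 after thinning and ranged from -0.0285 (without PK45H OVOL2 replicate 2) to 0.181 over leave-outs. Without HPAFII replicate 2 the share covered was 36.3% for KLK6 in PK45H and 14.9% for CEACAM6 in KP4. Depth limits KLK5, KLK7, KLK8 and CEACAM7, which had few counts.

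Replicate numbers did not pair the libraries. With the replicate block, 2 members were called in KP4 with M2rtTA, KLK7 (2.26, adjusted p 0.0418) joining CEACAM6 (1.03, adjusted p 0.0286), and no other count of calls changed.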
